A study of Rattus norvegicus with 3 samples.

Results

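A set of 10 ocular surface markers was followed in RNA from the rat retina, a tissue that has no cornea of its own. They are Krt12, Aldh3a1, Upk1b, Lypd2 and Elf3 of differentiated corneal epithelium, Krt5, Krt14, Dsp and Dsc3 of basal epithelium and its desmosomes, and Kera of the corneal stroma. The 10 symbols were taken by name from 32883 genes, and each was found in 1 row. All 10 passed the filter on low counts, a CPM (a count divided by the scaled library size) of 1 or more in any library, which kept 15543 genes. Kera passed through CTL alone. The 10 were chosen by their counts and their ratios between these libraries, as markers already known to differ, so every difference below is a description of 3 libraries.

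RNA came from retinas of 60-day-old Sprague-Dawley rats, with 1 library for each of 3 groups. HIOP_GSK was from eyes given a drug named only as GSK in the anterior chamber 24 h before ischemia. In HIOP and HIOP_GSK, saline through an anterior chamber needle held the pressure at 110 mmHg for 60 min. HIOP retina was taken 12 h later, per its label, and 12 h is recorded for HIOP_GSK as well. The CTL label gives no treatment, while the protocol describes a sham needle at 2.66 kPa without raised pressure, and which holds for CTL was not settled. No vehicle-injected eye was analysed here. How many animals a library holds is not stated in the labels. Without replicates nothing could be tested, no p-value is given, and fewer cells of a type cannot be told apart from less RNA per cell.

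Counts summed to 15132754 in HIOP_GSK, 17221510 in HIOP and 16090064 in CTL. The retinal identity of the libraries was checked with 14 genes of rods, cones, bipolar, ganglion, amacrine and Müller cells. All 14 had counts in every library, and together they took 0.878% of counts in HIOP_GSK, 1.03% in HIOP and 1.22% in CTL. The shares of all genes called in each comparison are given further below. By the rule for calls given below, 4 of the 14 were lower in HIOP than in CTL (median log2 ratio -0.76), 1 was lower in HIOP_GSK than in HIOP (median -0.018) and 4 were lower in HIOP_GSK than in CTL (median -0.79), with 0 higher in any comparison.

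The surface of the eye is covered by a stratified epithelium. Its basal cells carry the keratin pair Krt5 and Krt14 and divide, and the epithelium of the cornea also carries Krt12 and the enzyme Aldh3a1. Desmosomes, the junctions that tie keratin filaments of neighbouring cells together, are built from cadherins such as Dsc3 and the plaque protein Dsp. Beneath the epithelium, keratocytes of the stroma make the proteoglycan keratocan (Kera), which spaces the collagen fibrils of the clear cornea.

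The 10 genes together had 1364 counts in HIOP_GSK, 358 in HIOP and 5467 in CTL, or 0.00901%, 0.00208% and 0.0340% of the library in the same order. A gene was called lower or higher at a difference of 2-fold or more. In HIOP, 9 of the 10 were called lower than in CTL and 0 were called higher, and their median log2 ratio was -3.62 (-3.63 with Kera at its lower bound). Over all 15543 genes 8.04% were called lower and 9.00% higher, and their median was 0.0042. In HIOP_GSK, 8 of the 10 were called higher than in HIOP and 0 lower, and their median was 2.03 (2.28 without Kera, which had 1 count in HIOP_GSK and 0 in HIOP). The share of all genes was 4.56% higher and 1.69% lower, with a median of -0.0024. These counts of genes come from the contrasts that chose the 10, so nothing is read from them. Set against CTL, HIOP_GSK had 7 of the 10 called lower and 1 higher, and a median of -1.50, where 6.32% of all genes were lower and 10.4% higher, with a median of 0.00057. The 3 comparisons share libraries, so their values stand side by side and are not independent.

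Krt12, the type I keratin of differentiated corneal epithelium, had 249 counts in HIOP_GSK, 56 in HIOP and 1950 in CTL. It was high in CTL, lowest in HIOP and between them in HIOP_GSK. The ratio put Krt12 at 37.0-fold lower in HIOP than in CTL, with a 95% interval of 28.4 to 49.2 that covers counting error only, as do all intervals here. Krt12 was 5.002-fold above HIOP in HIOP_GSK (3.73 to 6.81) and 7.40-fold lower in HIOP_GSK than in CTL (6.49 to 8.48).

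Aldh3a1, the aldehyde dehydrogenase that accumulates in corneal epithelium of many mammals, had 271 counts in HIOP_GSK, 113 in HIOP and 1325 in CTL. Its order of libraries was that of Krt12, but the HIOP level was less far below CTL, at 12.5-fold lower (10.3 to 15.3). Relative to HIOP it stood 2.70-fold higher in HIOP_GSK (2.16 to 3.39), a smaller ratio than that of Krt12. Lypd2, which encodes a small protein of the Ly6 family, had 26 counts in HIOP_GSK, 7 in HIOP and 181 in CTL. On these low counts Lypd2 was 27.5-fold lower in HIOP than in CTL, with a wide interval of 13.1 to 69.4, and 4.18-fold above HIOP in HIOP_GSK (1.77 to 11.4).

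Upk1b, a tetraspanin first known from the surface of the bladder lining, had 27 counts in HIOP_GSK, 9 in HIOP and 47 in CTL. Upk1b was lower in HIOP_GSK than in CTL by less than 2-fold, with a ratio of 0.608 (0.364 to 0.996). Elf3, an ETS transcription factor of epithelial cells, had 89 counts in HIOP_GSK, 54 in HIOP and 103 in CTL. Elf3 differed least among the 10 between HIOP and CTL. It was 2.03-fold lower in HIOP (1.45 to 2.88), and its log2 ratio of -0.99, taken with a prior count of 2, was just short of the 2-fold limit, which it passed with total counts (-1.001), with a prior count of 0.5 (-1.01) and with the deposited TPM (-1.05 and -1.19 at pseudocounts of 0.5 and 0.1). Between HIOP_GSK and CTL the ratio of Elf3 was 0.914, and its interval of 0.681 to 1.23 includes 1.

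**Figure D1:**
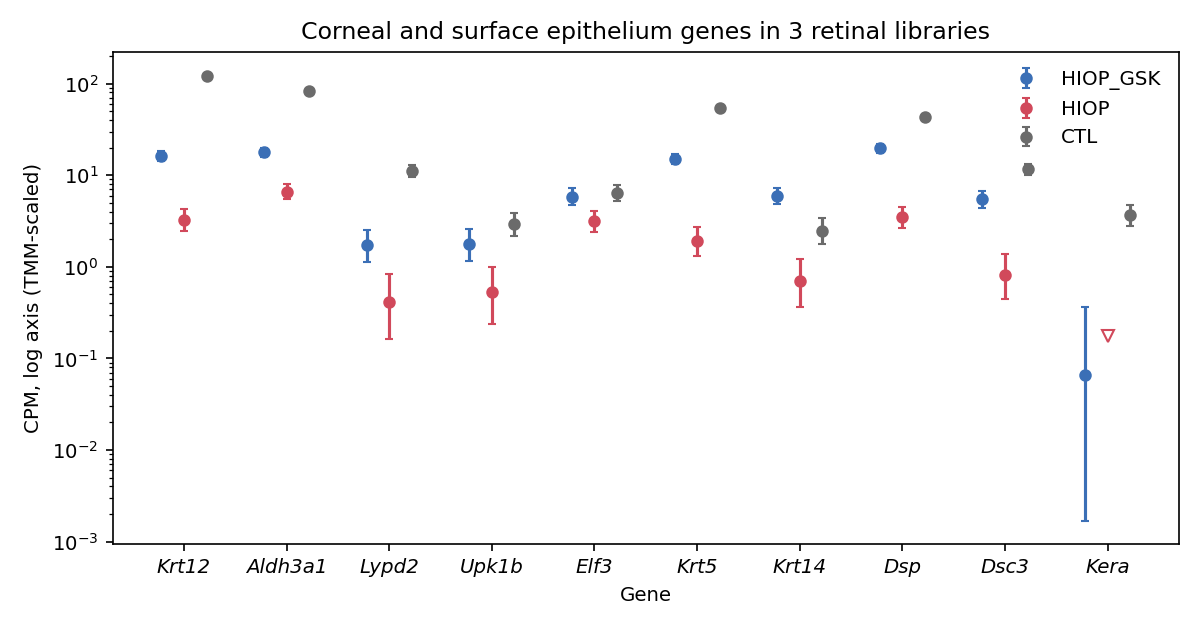
CPM of the 10 genes in each library on a log axis, 1 library per group, with HIOP_GSK, HIOP and CTL from left to right for each gene. Bars are exact Poisson 95% intervals of the count, and the open triangle marks the floor of 3 counts for Kera, with 0 counts in HIOP. HIOP is the lowest library for every gene except Kera, whose HIOP_GSK and HIOP values are both at or under that floor, and Krt14 is the only gene with its highest value in HIOP_GSK.

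The promoters of Krt12 and Krt5, 2 keratins that were low together in HIOP, and of Elf3, which differed least, are shown for their bases before the start site. Each holds the 250 bases upstream of the RefSeq start in build GRCr8, read 5′ to 3′ on the gene's strand, which is the minus strand for all 3. Krt12 lies at chr10:84874266-84874515, Krt5 at chr7:134730570-134730819 and Elf3 at chr13:49247087-49247336, and the deposited counts used another build. Capitals mark CACCC or its reverse complement GGGTG, a motif of Krüppel-like factors, and the TATA motif TATAAA or its reverse complement TTTATA.
Krt12: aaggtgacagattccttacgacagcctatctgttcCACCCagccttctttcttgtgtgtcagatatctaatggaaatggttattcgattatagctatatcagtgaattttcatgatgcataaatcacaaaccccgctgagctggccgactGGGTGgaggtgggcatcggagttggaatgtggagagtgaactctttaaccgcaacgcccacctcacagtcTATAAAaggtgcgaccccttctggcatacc
Krt5: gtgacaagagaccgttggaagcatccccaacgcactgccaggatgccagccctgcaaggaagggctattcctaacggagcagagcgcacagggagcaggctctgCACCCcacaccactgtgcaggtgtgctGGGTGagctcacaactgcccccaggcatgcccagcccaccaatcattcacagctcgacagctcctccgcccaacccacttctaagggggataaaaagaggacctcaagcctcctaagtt
Elf3: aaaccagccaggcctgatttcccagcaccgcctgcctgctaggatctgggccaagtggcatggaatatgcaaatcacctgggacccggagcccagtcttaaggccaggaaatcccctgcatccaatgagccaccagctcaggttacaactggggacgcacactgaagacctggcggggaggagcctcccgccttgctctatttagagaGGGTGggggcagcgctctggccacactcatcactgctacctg
RefSeq promoters were found for 7 of the 10 genes, not for Krt14, Aldh3a1 and Lypd2. On either strand CACCC stood in 6 of the 7, and in 49.2% of all 33469 promoters cut to the same length. TATAAA stood in 1 of the 7, Krt12, where it began 30 bases before the start, and in 12.9% of all promoters. The core AGGAAG (reverse complement CTTCCT) of ETS factors such as Elf3 stood in 3 of the 7, Krt5, Kera and Upk1b, and in 29.5% of all. No match of 1 motif overlapped a match of another in these 7. A match describes the letters of the window and does not show that a factor binds there.

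Krt5, the type II keratin of basal cells, had 229 counts in HIOP_GSK, 33 in HIOP and 880 in CTL. It was 28.4-fold lower in HIOP than in CTL (20.04 to 41.5), or 45.7-fold by the deposited TPM, and 7.81-fold above HIOP in HIOP_GSK (5.40 to 11.6). Krt14, the type I partner of Krt5 in basal cells, had 91 counts in HIOP_GSK, 12 in HIOP and 40 in CTL. Krt14 stood apart from the other 9 because its highest level was in HIOP_GSK, 2.41-fold above CTL (1.64 to 3.58). It was 3.54-fold lower in HIOP than in CTL (1.82 to 7.42) and 8.53-fold above HIOP in HIOP_GSK (4.65 to 17.1). Krt14 has close relatives among the type I keratins, and the labels do not say how reads shared between them were counted, so its value is uncertain.

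Dsp, the desmosomal plaque protein desmoplakin, had 298 counts in HIOP_GSK, 60 in HIOP and 696 in CTL. Dsc3, a desmosomal cadherin of basal epithelium, had 83 counts in HIOP_GSK, 14 in HIOP and 186 in CTL. Both were lowest in HIOP and reached less than CTL in HIOP_GSK. Dsp was 12.3-fold lower in HIOP than in CTL (9.47 to 16.3), and Dsc3 was 14.1-fold lower (8.21 to 26.4). Dsp was 5.59-fold above HIOP in HIOP_GSK (4.22 to 7.50), and Dsc3 was 6.67-fold higher (3.76 to 12.7). Relative to CTL both stood close to the 2-fold limit in HIOP_GSK, with Dsp 2.21-fold lower (1.93 to 2.54) and Dsc3 2.12-fold lower (1.63 to 2.78). For Dsc3 the call was lost with the deposited TPM and a pseudocount of 0.5, at a log2 ratio of -0.89.

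Kera, the only stromal gene of the 10, had 1 count in HIOP_GSK, 0 in HIOP and 59 in CTL. It was at least 20.9-fold lower in HIOP than in CTL, against a floor of 3 counts per library, which is 0.175 CPM in HIOP. In HIOP_GSK it was 55.8-fold lower than in CTL, with an interval of 9.63 to 2240 set by its single count. No ratio is given between HIOP_GSK and HIOP, since both values are at or under the floor. At this depth no level of Kera above the floor was detected in HIOP_GSK, while the intervals of the other 9 genes for HIOP_GSK over HIOP all lay above 1.

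**Figure D2:**
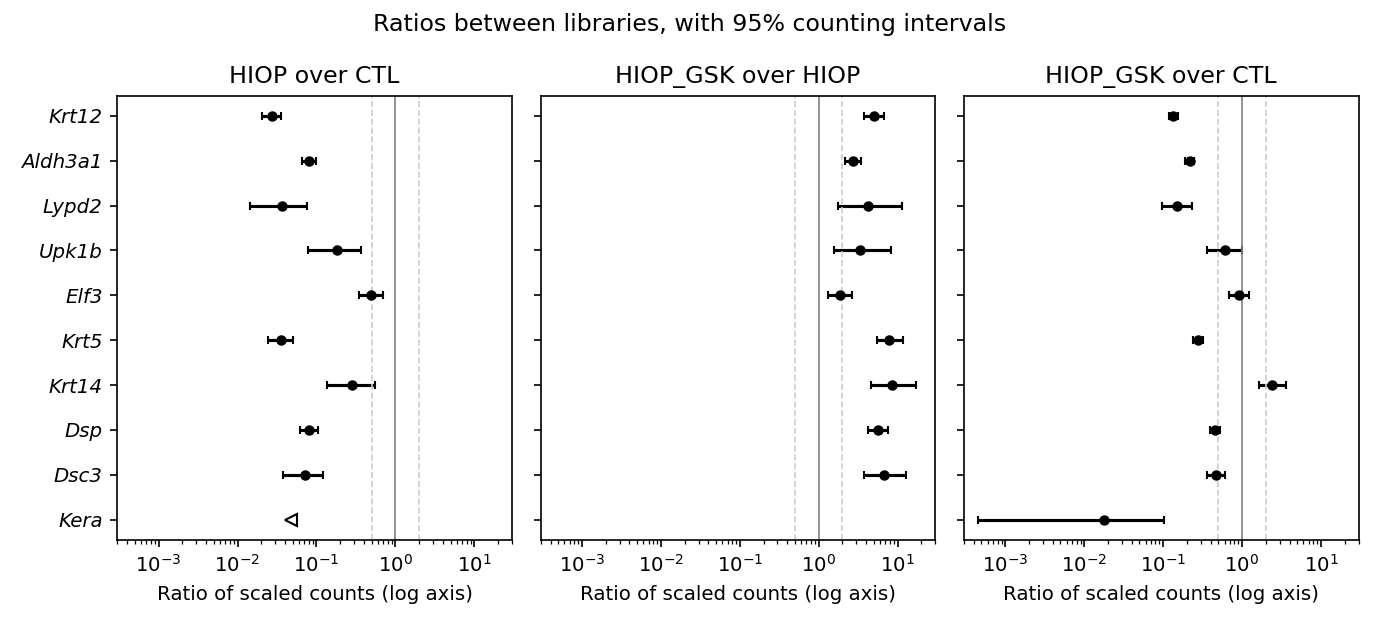
Ratios of scaled counts on a log axis for HIOP over CTL, HIOP_GSK over HIOP and HIOP_GSK over CTL, with 1 library per group. Bars are exact Clopper-Pearson 95% intervals, dashed lines mark 2-fold, and the open triangle is the bound for Kera in HIOP over CTL, for which no HIOP_GSK over HIOP ratio is drawn. In HIOP over CTL all points lie left of 1, in HIOP_GSK over HIOP all drawn points lie right of 1, and in HIOP_GSK over CTL only Krt14 lies right of 1.

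The 10 genes were also described by role. In HIOP over CTL the 4 basal and desmosomal genes had a median log2 ratio of -3.61 and the 5 genes of differentiated corneal epithelium one of -3.62. In HIOP_GSK over HIOP the medians were 2.73 for the 4 basal and desmosomal genes, with a range from 2.44 to 2.89, and 1.55 for the 5 differentiated genes, with a range from 0.87 to 2.28. These ranges overlapped with a prior count of 10, where Krt12 was at 2.13 and Dsc3 at 2.08, and with the deposited TPM, where at a pseudocount of 0.1 Krt12 was at 2.41 and Dsc3 at 2.23. The difference between them was not tested, because the genes were chosen and are not replicates.

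Levels between genes were compared on the deposited TPM, which is per length. In HIOP_GSK the order began with Krt5 at 17.4 TPM, Aldh3a1 at 15.2 and Krt12 at 13.5, and neighbours in this run had overlapping counting intervals. In HIOP, Aldh3a1 led at 5.22 TPM, and Krt12 at 2.47, Lypd2 at 1.86, Elf3 at 1.84 and Krt5 at 1.57 followed without a gap between neighbouring intervals. In CTL, Krt12 led at 107 TPM with an interval of 102.7 to 112, which lay above all others. Aldh3a1 at 72.7 and Krt5 at 71.8 TPM could not be told apart there, and Lypd2 at 56.8 TPM lay below them and far above Dsp at 6.58 TPM. The last 5 genes in CTL, from Elf3 at 4.33 TPM down to Upk1b at 2.25 TPM, had intervals that overlapped from each to the next.

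Ratios between the genes within a library also differed. Krt14 stood at 0.397 counts for each count of Krt5 in HIOP_GSK (0.308 to 0.509), at 0.364 in HIOP (0.171 to 0.723) and at 0.0455 in CTL (0.0323 to 0.0624). HIOP_GSK and HIOP therefore overlapped in this ratio and both lay above CTL. Krt12 stood at 1.09 counts per count of Krt5 in HIOP_GSK (0.905 to 1.31), 1.70 in HIOP (1.09 to 2.69) and 2.22 in CTL (2.05 to 2.40). The HIOP interval overlapped those of both other libraries. By the deposited TPM the ratio of Krt12 to Krt5 was 0.776 in HIOP_GSK, 1.57 in HIOP and 1.495 in CTL. Elf3 stood at 0.357 counts per count of Krt12 in HIOP_GSK (0.277 to 0.457), 0.964 in HIOP (0.651 to 1.43) and 0.0528 in CTL (0.0429 to 0.0644). In contrast, Dsc3 per count of Dsp was 0.279 in HIOP_GSK (0.216 to 0.356), 0.233 in HIOP (0.120 to 0.423) and 0.267 in CTL (0.226 to 0.315), and all 3 intervals overlap. Lypd2 per count of Krt12 likewise overlapped, at 0.104 in HIOP_GSK (0.0669 to 0.157), 0.125 in HIOP (0.0481 to 0.275) and 0.0928 in CTL (0.0793 to 0.108). These count ratios depend on gene length and compare libraries, not genes.

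Other keratins did not follow a single direction. Of 13 matched genes outside the 10, 10 passed the filter, and 3 of them were called lower and 2 higher in HIOP than in CTL, with a median log2 ratio of -0.46. Over all genes 8.04% were lower and 9.00% higher. The 2 higher keratins were Krt8 and Krt16, and Krt16 rested on 3 counts in HIOP, at the floor, against 0 in CTL. In HIOP_GSK over HIOP 7 of the 10 kept keratins were called higher and 0 lower (median 1.23), where 4.56% of all genes were higher and 1.69% lower. In HIOP_GSK over CTL 4 were higher and 0 lower (median 0.65), where 10.4% of all genes were higher and 6.32% lower. Krt16 and Krt17 are among the higher keratins in both comparisons. Both passed the filter through HIOP_GSK alone, so these counts of keratins are not read as a result. Krt8, a keratin of simple epithelia, had 464 counts in HIOP_GSK, 515 in HIOP and 140 in CTL. Krt18, the partner of Krt8, had 314, 296 and 158 counts in the same libraries. Both were lowest in CTL, unlike Krt12 and Krt5.

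Krt13, a keratin of non-cornified stratified epithelia such as conjunctiva, had 221 counts in HIOP_GSK, 77 in HIOP and 190 in CTL. It was 2.62-fold lower in HIOP than in CTL (2.004 to 3.47) and 3.23-fold above HIOP in HIOP_GSK (2.48 to 4.24). Krt16 and Krt17, keratins induced in wounded stratified epithelium and close in sequence to Krt14, were picked after their counts were known. Krt16 had 48 counts in HIOP_GSK, 3 in HIOP and 0 in CTL, and was at least 16.9-fold above CTL in HIOP_GSK and 18.0-fold above HIOP (5.80 to 90.4). Krt17 had 29 counts in HIOP_GSK, 5 in HIOP and 2 in CTL, a ratio of 15.3 for HIOP_GSK over CTL (3.88 to 133). Its CTL count was under the floor of 3 counts, and by the deposited TPM the same ratio was 6.29. By that TPM Krt17 was lower in HIOP (0.33) than in CTL (0.48). Krt14, Krt16 and Krt17 thus all had their highest counts in HIOP_GSK, and the split of reads among them is uncertain.

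**Figure D3:**
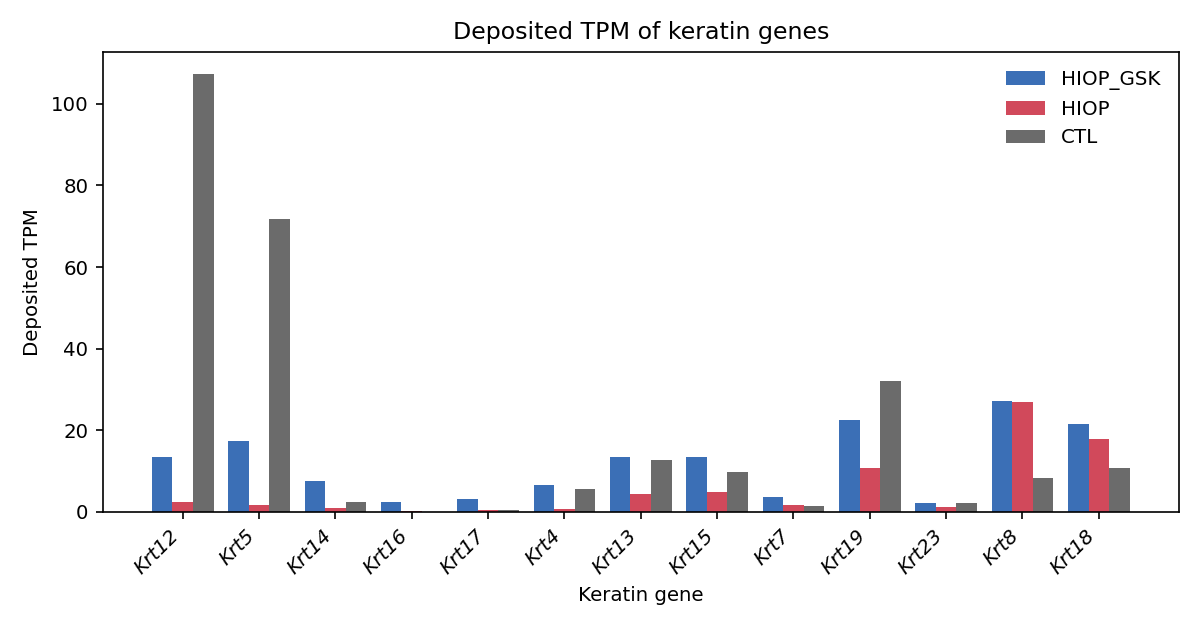
Deposited TPM of 13 keratin genes, 1 library per group, with bars for HIOP_GSK, HIOP and CTL from left to right and no error bars because there are no replicates. Krt12 and Krt5 have their tallest bar in CTL, at 107 and 71.8 TPM, and Krt14, Krt16 and Krt17 have theirs in HIOP_GSK, at 7.55, 2.51 and 3.02 TPM.

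Of 11 matched desmosome genes beside Dsp and Dsc3, 10 passed the filter. In HIOP over CTL 5 were called lower and 2 higher (median log2 ratio -0.94), and in HIOP_GSK over HIOP 5 were higher and 0 lower (median 0.996). In HIOP_GSK over CTL 1 was lower and 2 higher (median 0.028). The shares of all genes in the same 3 comparisons were 8.04% lower and 9.00% higher, 1.69% and 4.56%, and 6.32% and 10.4%. Pkp3 is among the 5 lower in HIOP than in CTL and the 5 higher in HIOP_GSK than in HIOP. It passed the filter through CTL alone, with 8 counts in HIOP_GSK, 1 in HIOP and 18 in CTL. These counts of desmosome genes are therefore not read as a result. Jup, the plaque protein plakoglobin that also sits in other junctions, had 821 counts in HIOP_GSK, 878 in HIOP and 991 in CTL, so its libraries were nearly level. Dsc2, a desmosomal cadherin of many epithelia, had 293, 321 and 115 counts in the same libraries and was 2.63-fold higher in HIOP than in CTL (2.12 to 3.28). Ppl, the plaque protein periplakin, had 693 counts in HIOP_GSK, 614 in HIOP and 479 in CTL, all within 2-fold. The basal and suprabasal cadherin genes Dsc3 and Dsg1 were low in HIOP, while Dsc2 was high.

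Genes that anchor epithelium to its basement membrane had few calls, in both directions. Of 8 kept genes of hemidesmosomes and anchoring, 1 was called lower and 2 higher in HIOP than in CTL (median log2 ratio 0.11), and 1 was higher and 1 lower in HIOP_GSK than in HIOP (median -0.032). In HIOP_GSK over CTL 1 was lower and 1 higher (median 0.20). Over all genes 8.04% were lower and 9.00% higher in HIOP over CTL. The shares were 1.69% and 4.56% in HIOP_GSK over HIOP and 6.32% and 10.4% in HIOP_GSK over CTL. With 8 genes nothing is read from these counts. The 3 with most counts were Dst and Plec, linker proteins that are also made outside epithelia, and the integrin gene Itga6. Plec was 3.48-fold higher in HIOP than in CTL (3.33 to 3.64) with 9709 and 2622 counts, while Dst and Itga6 were within 2-fold.

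Of 12 kept epithelial adhesion and junction genes, 2 were lower and 1 higher in HIOP than in CTL (median log2 ratio 0.076), where 8.04% of all genes were lower and 9.00% higher. In HIOP_GSK over HIOP 4 were higher and 1 lower (median 0.13), and in HIOP_GSK over CTL 2 were higher and 1 lower (median 0.44). All genes stood at 4.56% higher and 1.69% lower in HIOP_GSK over HIOP, and at 10.4% and 6.32% in HIOP_GSK over CTL. Cdh1, the epithelial cadherin, had 1143 counts in HIOP_GSK, 1318 in HIOP and 773 in CTL. Cdh3 had 259, 271 and 179 counts. Cldn1, a tight junction claudin, had 420 counts in HIOP_GSK, 1075 in HIOP and 144 in CTL, and was 7.02-fold higher in HIOP than in CTL (5.89 to 8.41), the opposite direction to Krt12.

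Of 7 kept genes for mucins, secreted and barrier proteins, 2 were called lower and 1 higher in HIOP than in CTL (median log2 ratio -0.86). In HIOP_GSK over HIOP 2 were higher and 0 lower (median 0.60), and in HIOP_GSK over CTL 2 were higher and 1 lower (median -0.39). Over all genes 8.04% were lower and 9.00% higher in HIOP over CTL. The shares were 1.69% and 4.56% in HIOP_GSK over HIOP and 6.32% and 10.4% in HIOP_GSK over CTL. Tgm1, the transglutaminase that cross-links the cornified envelope, had 215 counts in HIOP_GSK, 310 in HIOP and 13 in CTL, and was 22.4-fold higher in HIOP than in CTL (12.9 to 42.6). Mal, a membrane proteolipid also made by myelinating glia, was within 2-fold with 114, 92 and 159 counts. Aqp5, the water channel of corneal epithelium and exocrine glands, had 44 counts in HIOP_GSK, 14 in HIOP and 166 in CTL, in the order of Krt12.

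Transcription factors of epithelia other than Elf3 had 7 kept genes, with 2 called lower and 1 higher in HIOP than in CTL (median log2 ratio 0.078). In HIOP_GSK over HIOP 1 was higher and 0 lower (median -0.096), and in HIOP_GSK over CTL 1 was higher and 2 lower (median -0.23). Among all genes 8.04% were lower and 9.00% higher in HIOP over CTL. The shares were 1.69% and 4.56% in HIOP_GSK over HIOP and 6.32% and 10.4% in HIOP_GSK over CTL. Klf4 and Grhl1 were within 2-fold in each comparison. Klf5 had 152 counts in HIOP_GSK, 267 in HIOP and 54 in CTL, and was 4.65-fold higher in HIOP than in CTL (3.46 to 6.35). Tp63, the factor that maintains basal cells of stratified epithelia, was picked after its counts were known. It had 14 counts in HIOP_GSK, 4 in HIOP and 32 in CTL, a ratio of 0.118 for HIOP over CTL (0.0302 to 0.331). Tp63 passed the filter through CTL alone, and its HIOP count was close to the floor of 3 counts. Neither its ratio nor the counts of factors called are therefore read as a result.

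Of 12 kept keratocyte and collagen genes other than Kera, 2 were called lower and 0 higher in HIOP than in CTL (median log2 ratio -0.42), against the same 8.04% and 9.00% of all genes, and 2 were higher and 0 lower in HIOP_GSK than in HIOP (median 0.32). In HIOP_GSK over CTL 1 was lower and 1 higher (median 0.0067). All genes stood at 4.56% higher and 1.69% lower in HIOP_GSK over HIOP, and at 10.4% and 6.32% in HIOP_GSK over CTL. Dcn, a small proteoglycan of most connective tissue, had 1023 counts in HIOP_GSK, 736 in HIOP and 1193 in CTL, and Col5a1 and Col12a1 were within 2-fold in every comparison. Lum, a relative of keratocan that is abundant in corneal stroma and picked after its counts were known, had 100 counts in HIOP_GSK, 55 in HIOP and 219 in CTL. It was 4.24-fold lower in HIOP than in CTL (3.14 to 5.80), and unlike Kera it had counts in both HIOP_GSK and HIOP.

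Markers of other tissues next to the retina moved with these libraries. The 15 lens genes summed to 15410 CPM in HIOP_GSK, 4120 in HIOP and 1451 in CTL, with none at 0 in any library, so the lens sum was lowest in CTL, where 9 of the 10 surface genes were highest. The 7 pigment epithelium genes summed to 217 CPM in HIOP_GSK, 155 in HIOP and 435 in CTL, the order of libraries seen for most of the 10 genes. Within these lists, 13 of 15 lens genes were called higher and 6 of 6 kept pigment epithelium genes called lower in HIOP than in CTL. In HIOP_GSK over HIOP 14 of 15 lens genes were higher, and 0 of 6 pigment epithelium genes passed 2-fold in either direction. The 6 smooth muscle genes of iris and ciliary body summed to 103 CPM in HIOP_GSK, 109 in HIOP and 242 in CTL. Of these, 5 passed the filter, and 3 were lower and 0 higher in HIOP than in CTL (median log2 ratio -1.18), 0 passed 2-fold in HIOP_GSK over HIOP (median 0.14), and 3 were lower in HIOP_GSK than in CTL (median -1.44). In HIOP_GSK over CTL 15 of 15 lens genes were higher (median 3.72) and 3 of 6 pigment epithelium genes lower (median -0.90). Over all genes 8.04% were lower and 9.00% higher in HIOP over CTL. The shares were 1.69% and 4.56% in HIOP_GSK over HIOP and 6.32% and 10.4% in HIOP_GSK over CTL. The part of these tissues in the corneal values was not tested.

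**Figure D4:**
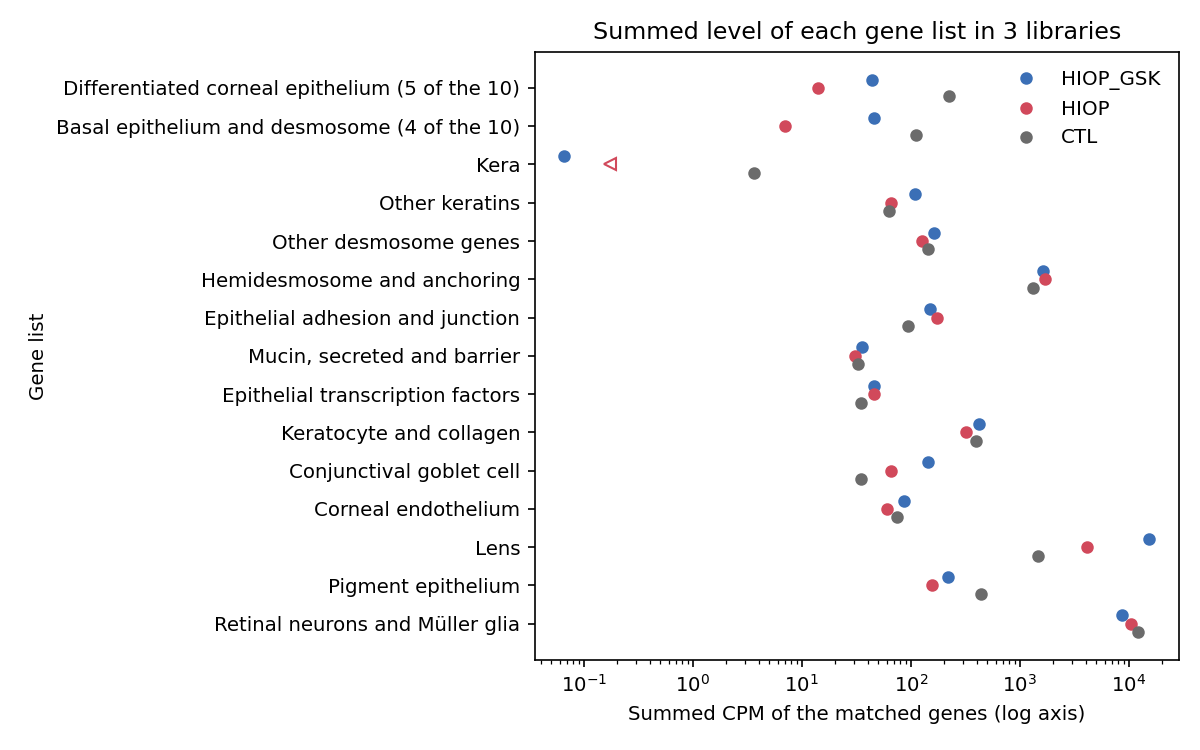
Summed CPM of the matched genes of 15 lists on a log axis, 1 library per group, with no error bars because there are no replicates. The open triangle marks the floor of 3 counts for Kera in HIOP. Differentiated corneal genes sum to 43.5 CPM in HIOP_GSK, 13.96 in HIOP and 224 in CTL, and basal genes to 46.1, 6.95 and 112 CPM, while lens genes run in another order, at 15410, 4120 and 1451 CPM.

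The genes most like Krt12 were looked for among 13564 others with at least 30 counts in CTL, by distance in the plane of the log2 ratios of HIOP over CTL and HIOP_GSK over HIOP, over 3 libraries. Of the 10 nearest, Dsg1, a cadherin of stratified epithelium, and Aqp5 were the 2 that the epithelial lists held. The nearest was Dio1, a deiodinase that activates thyroid hormone, at a distance of 0.784, with 32 counts in HIOP_GSK, 9 in HIOP and 244 in CTL. The second was Kcnj10, the potassium channel of Müller glia, at 0.873, with 93 counts in HIOP_GSK, 12 in HIOP and 312 in CTL. Rftn2, a raftlin, lay at 1.19 with 65, 5 and 178 counts, and Etnppl and Gdpd2 lay at 1.57 and 1.70. The other 3 were LOC108351063, AABR07045032.1 and LOC100360781, for which no role is given here. Of the 10 surface genes, Krt5 lay nearest to Krt12 at 0.738, with 0 of the 13564 nearer, and Elf3 farthest at 4.40, with 621 nearer. The plane is made of ratios by which the 10 were chosen, so their places in it are not read as a result. The nearest genes to Krt12 thus held a gene of Müller glia beside genes of stratified epithelium.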

How the data were processed

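RNA of rat retina was measured in 3 libraries, 1 each for HIOP_GSK, HIOP and CTL, grouped by their titles. Per the labels' protocols, 3 µg of RNA was depleted of ribosomal RNA and made into directional libraries. The deposited counts are whole numbers per Ensembl gene and are not normalized, and the deposited TPM sums to the same fixed total in each library. The submitters' processing notes name the build Rnor_6.0 and the tools RSEM 1.3.1 and STAR 2.5.4b, with no role. How strand was used in counting is not given in the sources used here. Counts and TPM of a gene can disagree: 17, 17 and 19 genes in HIOP_GSK, HIOP and CTL had 0 counts and a TPM above 1. More genes disagreed the other way, with 503, 545 and 566 in the same libraries at 20 or more counts and a TPM of 0.

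Counts were scaled with TMM in edgeR 4.0.16 (R 4.3.3), with factors of 1.006, 0.994 and 1.000 in the same order. Log2 ratios used a prior count of 2, and ratios of named genes used counts without a prior, with a Clopper-Pearson interval at 95%. Intervals around TPM were scaled from the Poisson interval of the count. Reads were not collapsed to molecules by identifiers, so intervals and the floor of 3 counts cover counting error only. The calculation was tested on simulated counts.

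The 10 genes and the 18 lists, 3 of which hold the 10, were chosen with earlier results of these data known. Of 164 listed genes, 155 were matched by symbol and 1, Muc5ac, by a synonym in RefSeq (GRCr8); 8 were not analysed here. The retina list is given without 1 gene that is not reported here. Named genes were the 10, up to 3 kept genes per list with most counts, and the 10 nearest to Krt12. Named outside this rule were Krt16, Krt17, Tp63 and Lum, picked after their counts were known, and also Pkp3, Tff1 and Tff3. DESeq2 1.42.0 size factors, total counts, TMM without the most abundant genes, the deposited TPM, other filters, priors and fold limits were tried as alternatives.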

Additional observations from a re-analysis of the deposited data

How the results depend on the processing

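No paired analysis was possible because each group holds 1 library. Across 9 settings of scaling, unit, filter and prior, each of the 10 genes kept the direction of its log2 ratio in all 3 comparisons, except that Kera has no direction for HIOP_GSK over HIOP, with 1 count against 0, and the median of the 10 ranged from -3.70 to -2.82 for HIOP over CTL, from 1.62 to 2.36 for HIOP_GSK over HIOP and from -1.60 to -1.47 for HIOP_GSK over CTL. Kera and Upk1b did not pass a filter at CPM 5 and have 8 settings. The median for HIOP over CTL was closer to 0 with the deposited TPM and a pseudocount of 0.5 (-2.82) and with a prior count of 10 (-3.25), both of which shrink ratios of low counts. At a 4-fold limit 5 of the 10 were higher in HIOP_GSK than in HIOP, and in HIOP_GSK over CTL 4 were lower and 0 higher.

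The numbers of all genes past the limit moved more. For HIOP over CTL, 2113 genes were lower without a filter and 773 with a filter at CPM 5, and the 1.5-fold limit gave 2733 lower and 2508 higher, the 4-fold limit 207 and 528. For HIOP_GSK over HIOP, 711 were lower and 1448 higher without a filter, 114 and 336 at CPM 5, 749 and 1504 at 1.5-fold, 46 and 145 at 4-fold, and 153 lower with a prior count of 10. For HIOP_GSK over CTL, 1826 were lower and 2534 higher without a filter, 594 and 1055 at CPM 5, 2585 and 2739 at 1.5-fold, and 135 and 690 at 4-fold. Depth limits Kera, Lypd2, Upk1b and Krt14 most, with 12 or fewer counts each in HIOP.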

Other observations

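Lists of other ocular surface tissues did not share the order of Krt12. Of 5 kept genes of conjunctival goblet cells, the mucus-secreting cells of the surface, 0 were called lower and 3 higher (by 2-fold or more) in HIOP than in CTL (median log2 ratio 1.61), 1 was higher in HIOP_GSK than in HIOP (median 0.77), and 3 were higher in HIOP_GSK than in CTL (median 1.99). Among all genes 9.00%, 4.56% and 10.4% were higher in these comparisons, and 8.04%, 1.69% and 6.32% lower. Muc5ac, the gel-forming mucin of goblet cells, had 1371 counts in HIOP_GSK, 530 in HIOP and 162 in CTL, and was 8.95-fold higher in HIOP_GSK than in CTL (7.60 to 10.6). Muc5b had 103 counts in HIOP_GSK, 159 in HIOP and 26 in CTL. Fcgbp, a mucus protein, had 597, 362 and 348 counts in the same libraries. Tff1 and Tff3, trefoil peptides of mucous cells, had at most 2 counts in any library.

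The 4 kept genes of corneal endothelium, the inner layer of the cornea, were within 2-fold in each comparison, as were most of all genes, and with 4 genes nothing is read from this. Slc4a11, a transporter of that layer, had 123 counts in HIOP_GSK, 137 in HIOP and 111 in CTL, and Col8a1, a collagen of its basement membrane, had 742, 619 and 655 counts. Col8a2 had 379, 235 and 383 counts. It was 1.73-fold lower in HIOP than in CTL (1.47 to 2.05) and 1.81-fold above HIOP in HIOP_GSK (1.54 to 2.14). Of 4 matched genes of cornified skin only Krt10 passed the filter, with 82 counts in HIOP_GSK, 69 in HIOP and 62 in CTL. Skeletal muscle had 2 of 5 matched genes above the filter, 1 lower and 1 higher in HIOP than in CTL. The lower gene, Acta1, had 20 counts in HIOP_GSK, 22 in HIOP and 56 in CTL. The higher gene, Tnnt3, had 21, 15 and 6 counts and passed the filter through HIOP_GSK alone. Its ratio for HIOP over CTL was 2.35, with an interval of 0.862 to 7.4 that includes 1. By the deposited TPM Tnnt3 was lower in HIOP (0.21) than in CTL (0.37).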
